A study of Mus musculus with 29 samples.

Results

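Whole trunk tissue of mouse embryos was compared with somite cells sorted from embryos of the same stage, a comparison that asks which tissues of the trunk are represented in the sorted fraction. It uses 7 of the 29 libraries of the series, chosen by their titles: WT1 to WT3 and SOMC1 to SOMC4. Both groups are labelled C57BL/6 at E9.0, and the shared growth protocol names Dll1-YFP embryos. The labels call the sorted YFP-positive cells Dll1 lineage, after a Notch ligand gene. For WT, RNA was taken directly from tissue labelled trunk, although the source field of the same libraries calls it paraxial mesoderm. SOMC holds YFP-positive cells of somites 6 to 9, collected by fluorescence-activated sorting after the tissue was dissociated. Neither group was cultured or treated. The sources used here do not say which somite levels the trunk pieces span, what drives the YFP, how many embryos were pooled, or whether replicates are separate litters, so the p-values measure the spread between these samples, which may be technical. MUT (trunk tissue, mutation not given in the labels), SOMA, SOMB and SOMD (sorted cells of other axial levels), and CTRL and DIR (sorted cells after culture, DIR with LDN and SAG) enter as alternatives or as levels in the last paragraph.

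Somites are paired blocks of paraxial mesoderm that flank the neural tube. They bud from the presomitic mesoderm of the tail bud, where Dll1 is made at a high level, and then divide into sclerotome, which gives vertebrae and ribs, and dermomyotome, which gives skeletal muscle and dermis. Notochord and floor plate secrete Sonic hedgehog, and the dorsal neural tube and surface ectoderm secrete Wnt and BMP ligands, all of which act on the somite. A piece of trunk holds these senders together with gut, vessels and blood. Dll1 is also made in parts of the neural tube.

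The libraries held 31454988 to 34411231 gene counts in WT and 15834045 to 26950283 in SOMC. Non-unique alignments, which the counting discarded, were 38.8 to 39.6% of all counted alignments in WT and 18.2 to 19.3% in SOMC, so group and this share cannot be told apart. Ambiguous alignments, which overlap more than 1 gene and were discarded too, were 0.584 to 0.607% in WT and 1.51 to 1.70% in SOMC. The same limit holds for them, and it bears on genes that overlap others. SOMC1 and SOMC4 were unusually alike: the chi-square of their gene counts over its degrees of freedom was 1.95, against 10.4 to 21.2 for the other SOMC pairs, and they entered as separate libraries. The labels do not say whether the 2 came from separate embryos. If they hold 1 RNA sample, SOMC has 3 samples and not 4, and the standard errors and p-values are too small. With the 2 summed into 1 library, 4452 genes were higher and 4555 lower, and among the genes named here the call of Chrd ended (edgeR adjusted p = 0.117). By the same measure SOMD1 and SOMD4 were alike too, at 1.91 against 9.24 to 16.4 for the other SOMD pairs. The alternative with SOMD carries the same limit. WT3 stood apart within WT, with a summed neuron list of 425 CPM (a gene's count scaled to the size of its library) against 159.9 and 187, and a summed tail bud list of 125 against 259.9 and 309. WT2 had most yolk sac RNA and SOMC2 most endothelial and immediate early RNA, as given beside those lists. Xist, the RNA of the inactive X chromosome, was 3.06 to 10.98 CPM in WT and 989 to 1034 CPM in SOMC, and Y-linked Ddx3y was 109.7 to 123 and 31.9 to 41.9 CPM, so the sex make-up of the pools and the group cannot be told apart either.

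Because discarded alignments bear on every gene that has near-identical copies, genes with such copies are shown first. The 60 coding bases that begin each reading frame are printed 5′ to 3′ from GRCm38, with the start codon in capitals. In both pairs the copy at another locus differed from the gene at 0 of these 60 bases, so a short read from them has no unique place.

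Rpl37 (chr15, gene chr15:5116645-5119140): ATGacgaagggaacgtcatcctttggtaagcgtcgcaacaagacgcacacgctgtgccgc
Rpl37rt (chr5, pseudogene chr5:115102923-115110268): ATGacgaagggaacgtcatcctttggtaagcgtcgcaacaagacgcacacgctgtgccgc
Cycs (chr6, gene chr6:50562563-50566538): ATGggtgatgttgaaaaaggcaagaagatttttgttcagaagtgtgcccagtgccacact
Gm10053 (chr19, copy chr19:24875686-24876631): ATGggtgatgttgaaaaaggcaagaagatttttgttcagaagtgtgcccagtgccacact

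Rpl37 encodes a protein of the large ribosomal subunit. It stood at 14.5, 12.4 and 11.01 CPM in WT1 to WT3 and 473, 455, 579 and 444 CPM in SOMC1 to SOMC4, with no overlap, a log2 fold change (WT minus SOMC, ± standard error) of −5.27 ± 0.14 and an edgeR adjusted p of 5.99e-09. Cycs, the electron carrier cytochrome c, was at 9.09 to 10.95 and 161 to 215 CPM (log2 fold change −4.20 ± 0.12, edgeR adjusted p = 5.99e-09). For each gene the share of its 30-base windows that recur in a gene at another locus was computed, and the fold change was lower where that share was over 10%. Among 7272 genes with no shared window the median log2 fold change was −0.02, and 13.7% were at least 2-fold lower in WT. Between 10% and 30% shared windows (743 genes) the median was −0.36 and 26.8% were at least 2-fold lower. Between 30% and 60% shared windows (377 genes) the median was −1.13 and 51.7% were at least 2-fold lower. Above 60% (194 genes) it was −1.73 with 71.6%. Exon length and base composition moved with the group too: from the shortest to the longest of 10 equal classes of genes the median went from −0.77 to 0.39, and from the lowest to the highest of 10 classes of GC content from 0.39 to −0.56. A second fit removed the length and GC trends of each library. Its value, called trend-removed below, is given beside the calls it ended or turned and beside larger shifts. Those trends and the group cannot be told apart, so this fit can also remove differences of tissue.

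**Figure D1:**
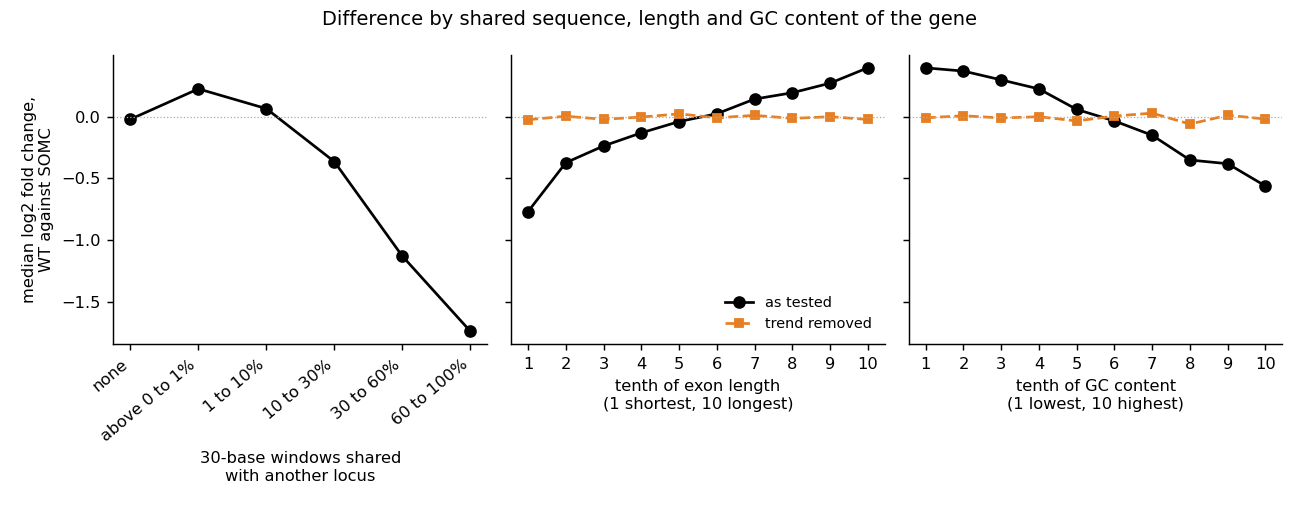
Median log2 fold change (WT minus SOMC) of all genes tested, by the share of 30-base windows that recur elsewhere, by 10 classes of exon length and 10 of GC content. The median falls to −1.73 in the class above 60% shared windows. The trend-removed fit lies near 0 over length and GC because it subtracts those trends.

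Over the 14294 genes tested, 4851 (33.9%) were higher and 4791 (33.5%) lower in WT at an adjusted p under 0.05 by edgeR's quasi-likelihood test. With a change of at least 2-fold required as well, 1540 (10.8%) were higher and 2054 (14.4%) lower. In 33.2% of genes every WT library exceeded every SOMC library, and in 33.5% every one lay below. With genes of at least 1% shared windows left out, fewer genes were tested (10338), of which 1142 were at least 2-fold higher and 1321 at least 2-fold lower. Read against these shares, a tissue list with a few called members in each direction is not a result about that tissue. In whole tissue, fewer cells of a type and less RNA per cell cannot be told apart, and this holds for each list that follows.

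Red-cell genes, the epithelial factor Trp63 and the loci of microRNAs Mir10b and Mirlet7d were among the 10 genes with the largest change higher in WT. Mir10b, counted as the long transcript at the microRNA's locus, was at 13.7, 15.4 and 17.1 CPM in WT and at 0 in all 4 SOMC libraries. Against a floor of 3 counts over the SOMC group it was at least 397-fold higher. Its interval holds 9 annotated genes that overlap, and a kit for long RNA does not measure the mature microRNA. Mirlet7d was at 23.8, 27.96 and 31.9 and 0.547, 1.04, 0.264 and 0.638 CPM (log2 fold change 5.48 ± 0.25), and the same limit holds for it. Nepn, which encodes the extracellular matrix protein nephrocan, was at 94.1, 116 and 19.2 CPM in WT and 0.398, 0.195, 1.91 and 0.526 in SOMC (log2 fold change 6.74 ± 0.72, edgeR adjusted p = 1.57e-05). At the other end, immediate early genes and genes with many copies led. Gm5506 was at 0.0275 to 0.278 CPM in WT and 142 to 201 in SOMC, and 88.5% of its windows recur elsewhere. Its parent gene Eno1, enolase of glycolysis, reached at most 0.572 CPM in any of the 7 libraries. Ifi204, an interferon-induced gene, was at 0 in all WT libraries and 45.6, 26.5, 30.5 and 49.9 CPM in SOMC, at least 1395-fold lower in WT, with 47.2% of windows shared. Nr1h5, a nuclear receptor gene, was at 0.915 to 3.21 and 69.8 to 91.1 CPM.

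Embryonic red cells, which arise in the yolk sac and circulate through the trunk, had the highest median of the tissue lists. All 19 red-cell genes tested were higher in WT (17 at least 2-fold), with a median log2 fold change of 5.06. The embryonic globins dominated: Hbb-bh1 stood at 673, 409.8 and 834 CPM in WT and 10.9, 1.63, 32.2 and 13.03 CPM in SOMC, Hbb-y at 510.1, 295 and 813 and 13.8, 2.604, 32.7 and 15.99, and Hba-x at 366, 255.3 and 596 and 8.61, 1.498, 18.7 and 8.52. In each of these genes the lowest WT library, WT2, stood far above the highest SOMC library, SOMC3, and SOMC2 had the least. Hbb-bh1 had a log2 fold change of 5.48 ± 0.58 (edgeR adjusted p = 1.53e-05). Membrane and regulatory genes of the lineage went the same way. Slc4a1, the anion exchanger of the red-cell membrane, was at 98.7, 60.1 and 133 CPM and 0.796, 0, 1.71 and 0.563 CPM (log2 fold change 7.03 ± 0.45). Hemgn, a nuclear protein of red-cell precursors, had 10.9, 7.72 and 22.9 and 0.0995, 0, 0.0659 and 0 CPM. Gata1, the factor that commits cells to the lineage, had 3.37, 2.901 and 4.72 and 0.149, 0, 0.0659 and 0.0751 CPM (log2 fold change 5.49 ± 0.46, edgeR adjusted p = 2.95e-06). Tfrc, the transferrin receptor, is used by many dividing cells and differed less, at 450.0 to 466 and 217 to 248 CPM (log2 fold change 0.96 ± 0.06, 0.52 ± 0.07 trend-removed). It made up most of the summed list in SOMC, which was 322 to 391 CPM. Adult alpha globin Hba-a1 was counted at 0 in every library, and so was its duplicate Hba-a2. Reads that fit both genes would be discarded as non-unique, so the count of 0 does not show that the RNA was absent.

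Gut endoderm genes were higher in WT as well, and surface ectoderm genes less evenly. Of 13 gut endoderm genes tested 10 were higher and 0 lower (median 1.62), and the trend-removed fit called 13 with 12 at least 2-fold, against 8 in the first fit. Summed over the list, WT1 to WT3 had 182, 194 and 94.9 CPM, and SOMC 18.96 to 26.3. Epcam, an adhesion molecule shared by most epithelia, stood at 41.3, 44.8 and 17.4 CPM in WT and 1.79, 0.846, 2.57 and 2.03 in SOMC (log2 fold change 4.24 ± 0.37, edgeR adjusted p = 3.77e-06). Cdh1, E-cadherin, had 38.8, 39.6 and 17.5 and 1.44, 1.17, 2.51 and 1.13 CPM, and Ihh, the Hedgehog ligand of gut epithelium, 4.203, 6.11 and 1.098 and 0.0498, 0.1302, 0.264 and 0.188 CPM. All 3 had groups that did not overlap. Surface ectoderm genes had 12 higher and 2 lower of 22 (median 1.35, 1.99 trend-removed). Their summed CPM was 650.3, 740.5 and 348 in WT and 411, 454, 389 and 403 in SOMC, so WT3 lay below every sorted library. Trp63, the master factor of stratified epithelium, was at 14.95, 18.4 and 13.9 CPM in WT, at 0 in SOMC1 and SOMC2, and at 0.659 and 0.0375 CPM in SOMC3 and SOMC4 (log2 fold change 6.71 ± 0.59, edgeR adjusted p = 4.21e-06). Its keratin Krt5 had 4.86 to 6.67 and 0 to 0.198 CPM. The simple-epithelium keratin Krt8 was lower in WT, at 42.4, 57.9 and 12.4 CPM against 93.03, 106, 95.7 and 87.5 (log2 fold change −1.35 ± 0.38), a call that ended in the trend-removed fit (−0.71 ± 0.36, edgeR adjusted p = 0.11), and 32.9% of its windows are shared. Dsp, the desmosome plaque protein, was at 117 to 243 and 163 to 208 CPM in the 2 groups and not called, except without WT3 (log2 fold change 0.38, edgeR adjusted p = 0.00372).

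Yolk sac and visceral endoderm genes rested largely on WT2. Afp, the fetal serum protein alpha-fetoprotein, was at 8.03, 66.1 and 4.12 CPM in WT and 0.199, 0.195, 2.901 and 0.188 CPM in SOMC, so WT2 stood far above the rest (log2 fold change 5.08 ± 1.13, edgeR adjusted p = 0.00244). Summed CPM was 209, 406 and 116 in WT and 72.3 to 94.3 in SOMC. The list's median of 1.599 (8 higher, 2 lower of 14) was 0.90 without WT2 and 2.48 trend-removed. Albumin, Alb, reached at most 0.1098 CPM.

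Neural tube genes were higher in WT. Of 17 progenitor genes 13 were higher and 2 lower in WT (median 1.99). Sox1, a factor of early neural tissue, was at 80.7, 63.4 and 74.7 CPM in WT and 6.27, 3.26, 5.14 and 5.93 CPM in SOMC. The groups were far apart in every library, with a log2 fold change of 3.80 ± 0.17 and an edgeR adjusted p of 5.91e-08. Sox2, shared by neural and gut progenitors, was at 71.5, 56.2 and 92.5 and 21.8, 12.4, 19.98 and 21.8 CPM (1.94 ± 0.20), and Pax6, of the ventral and intermediate tube, at 46.6, 34.3 and 54.2 and 9.06, 4.23, 10.2 and 9.31 (2.45 ± 0.24, both log2 fold changes). SOMC2 had the lowest level of each of these 3 genes among the sorted libraries. The members lower in WT were Ptn, a heparin-binding growth factor also made by mesenchyme (75.9 to 90.1 against 209 to 235 CPM, log2 fold change −1.44 ± 0.08), and Msi1, whose call ended trend-removed (edgeR adjusted p = 0.105). Cdh2, N-cadherin, which somites also express, was at 215 to 231 and 186 to 213 CPM and not called by edgeR, though DESeq2 called it higher (adjusted p = 0.0331).

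Along the dorsoventral axis of the neural tube 11 of 17 domain factors were higher and 5 lower, and 12 and 3 trend-removed. Dorsal Olig3 (16.3, 10.1 and 32.1 against 1.19, 0.195, 1.12 and 1.24 CPM) and roof plate Lmx1a (6.63, 6.05 and 7.38 against 0.896, 0.716, 1.12 and 1.54 CPM) were higher, as was ventral Nkx6-1 (15.2, 16.3 and 16.7 against 6.02, 3.78, 4.81 and 5.52 CPM). Olig2 of motor neuron progenitors was at 17.2, 14.5 and 28.2 CPM in WT and 8.31, 4.36, 8.11 and 9.12 in SOMC, a smaller difference (log2 fold change 1.40 ± 0.27, edgeR adjusted p = 0.000947). The 3 that stayed lower after trend removal, Lmx1b, Lhx2 and Lhx9, are also factors of limb mesenchyme. Lhx2 was at 0.0858, 1.204 and 0.549 CPM in WT and 11.7, 3.19, 2.703 and 8.15 in SOMC, highest in SOMC1 and SOMC4.

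Neuron genes were higher in WT too, with WT3 the highest of the 3 libraries. 17 of 25 neuron genes were higher and 1, Gap43, lower, the latter not called trend-removed (edgeR adjusted p = 0.634). Tubb3, the neuronal tubulin, was at 8.84, 4.81 and 22.04 CPM in WT and 4.98, 1.56, 4.29 and 4.81 in SOMC. WT2 lay inside the SOMC range and WT3 was highest (log2 fold change 1.59 ± 0.49, edgeR adjusted p = 0.0146). Without WT3 its log2 fold change was 0.78 ± 0.37 (edgeR adjusted p = 0.0867). Neurog2, which starts neuron formation in the spinal cord and ganglia, had 18.6, 21.4 and 46.6 and 5.72, 1.82, 4.81 and 4.62 CPM with no overlap (2.75 ± 0.37 on the log2 scale). Neurog1, of sensory neuron precursors, had 6.92, 2.84 and 21.1 and 1.24, 0.1302, 0.0659 and 0.563 CPM.

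Neural crest, the migrating cells that leave the dorsal neural tube and cross the somites, was lower in SOMC. 12 of 15 crest genes were higher in WT and 1 lower (median 2.20). Sox10, the factor of migrating crest, was at 11.7, 7.44 and 18.4 CPM in WT and 2.69, 0.391, 1.65 and 2.14 in SOMC (log2 fold change 2.82 ± 0.44, edgeR adjusted p = 0.000248). Foxd3, of early crest, was at 8.29, 6.73 and 9.44 and 1.14, 0.651, 0.725 and 0.713 CPM, and Tfap2b at 35.3, 29.2 and 51.6 and 2.34, 0.456, 1.78 and 1.73 CPM, with SOMC2 lowest in each of the 3. Cdh6, a cadherin of crest and neural tube, varied little within each group (46.03, 40.6 and 44.2 and 7.02, 5.53, 5.802 and 6.19 CPM, log2 fold change 2.82 ± 0.10). The member lower in WT was Snai1, a repressor of epithelial genes that mesoderm also makes, at 13.3 to 15.8 and 30.7 to 43.4 CPM (log2 fold change −1.34 ± 0.13, −0.46 ± 0.12 trend-removed).

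Notochord and floor plate genes were higher in WT for 10 of 14 and lower for 1, Chrd, whose call ended trend-removed (edgeR adjusted p = 0.0737). Shh, the ligand itself, was at 42.6, 33.98 and 36.4 CPM in WT and 1.84, 2.34, 3.76 and 2.29 CPM in SOMC. No SOMC library came near a WT library (log2 fold change 3.904 ± 0.19, edgeR adjusted p = 8.85e-08). Foxa2, which activates Shh there, was at 14.04, 9.23 and 6.78 and 1.49, 1.95, 1.98 and 1.69 CPM, and Noto, of node and notochord, at 0.686, 0.926 and 0.439 and 0, 0, 0.198 and 0 CPM. The summed list kept 63.04% of its WT level in SOMC, most of it from Ntn1, Sulf1 and Slit2, whose CPM ranges in SOMC were 167 to 248, 54.5 to 58.5 and 43.1 to 59.9.

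Presomitic mesoderm and tail bud genes had 11 of 15 higher and 0 lower in WT (median 2.26, with 14 higher and 3.004 trend-removed). T, the Brachyury factor of the tail bud, was at 23.5, 18.5 and 6.67 CPM in WT and 1.05, 0.977, 0.659 and 1.201 in SOMC (log2 fold change 4.02 ± 0.41, edgeR adjusted p = 1.22e-05). Cdx4, a posterior homeobox gene, was at 24.3, 20.9 and 1.24 and 0.498, 0.391, 1.19 and 0.563 CPM. WT3 thus held tail bud RNA at a level near that of SOMC for Cdx4, and without it the list's median was 3.27. Tbx6, which sets paraxial mesoderm fate, showed the same split at 5.03, 4.85 and 0.302 and 0.597, 0.912, 0.791 and 0.563 CPM, with WT3 below every SOMC library. Lfng and Wnt3a, which the neural tube expresses too, did not single out WT3, at 37.5, 34.3 and 41.2 and 5.09, 5.22 and 5.82 CPM. Dll1, after which the sorted lineage is named, was at 98.8, 76.5 and 59.96 CPM in WT and 17.7, 22.5, 19.6 and 19.1 CPM in SOMC. The sorted cells had less Dll1 RNA than whole trunk in every library (log2 fold change 1.99 ± 0.15, edgeR adjusted p = 1.73e-06). The tail bud and neural tube lists were higher in WT too, and their part in this difference was not tested.

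Endothelial genes were higher in WT for 16 of 22, by smaller amounts (median 0.93). Cdh5, the cadherin of vessel walls, was at 87.8, 97.03 and 92.7 CPM in WT and 25.2, 46.1, 14.7 and 25.98 in SOMC (log2 fold change 1.73 ± 0.27, edgeR adjusted p = 0.000249). SOMC2 had the highest level of the sorted libraries, here and in the summed list (289.9, 552, 232 and 280.5 CPM against 638 to 685 in WT). Kdr, a VEGF receptor that early mesoderm also makes, was at 115, 119 and 101 and 49.3, 107, 43.8 and 48.7 CPM, with SOMC2 inside the WT range. Its call (edgeR adjusted p = 0.0165) ended trend-removed (0.0567) and against SOMC2 and SOMC3 alone (0.136). Pecam1 had 17.5, 15.9 and 21.2 and 9.16, 14.5, 6.39 and 9.01 CPM. Egfl7, a secreted vessel protein, went the other way (7.36 to 9.26 against 25 to 47.9 CPM, log2 fold change −1.96 ± 0.23). Without SOMC2 the list's median was 1.25. Myeloid genes were near the floor: 13 of 19 were too low to test, and Ptprc, the marker of white blood cells, reached at most 0.275 CPM. Germ cell genes gave 2 higher and 2 lower of 5.

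**Figure D2:**
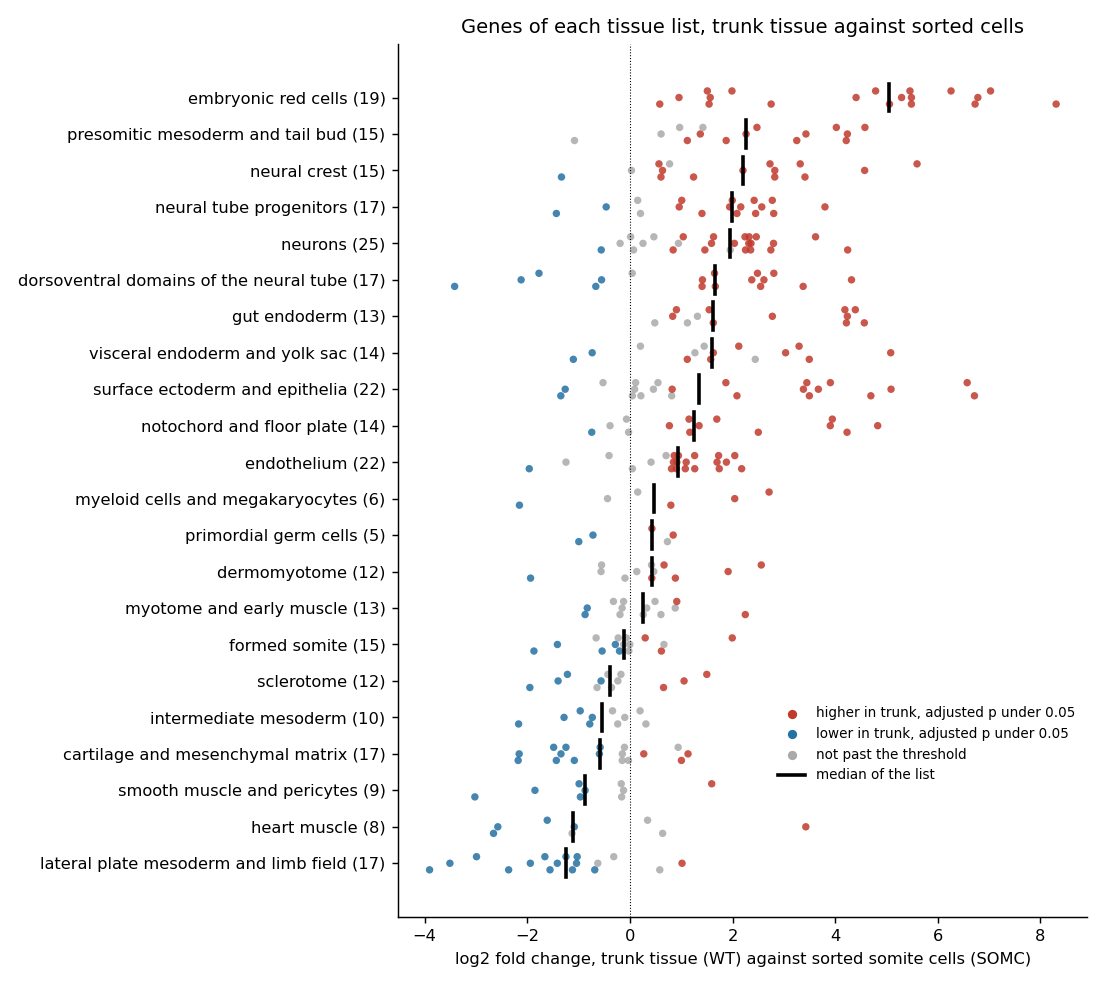
Log2 fold change (WT minus SOMC) of every tested member of each tissue list, 1 point per gene, with the list's median as a bar. Red-cell genes have a median of 5.06 and lateral plate genes of −1.25, with the somite lists near 0.

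**Figure D3:**
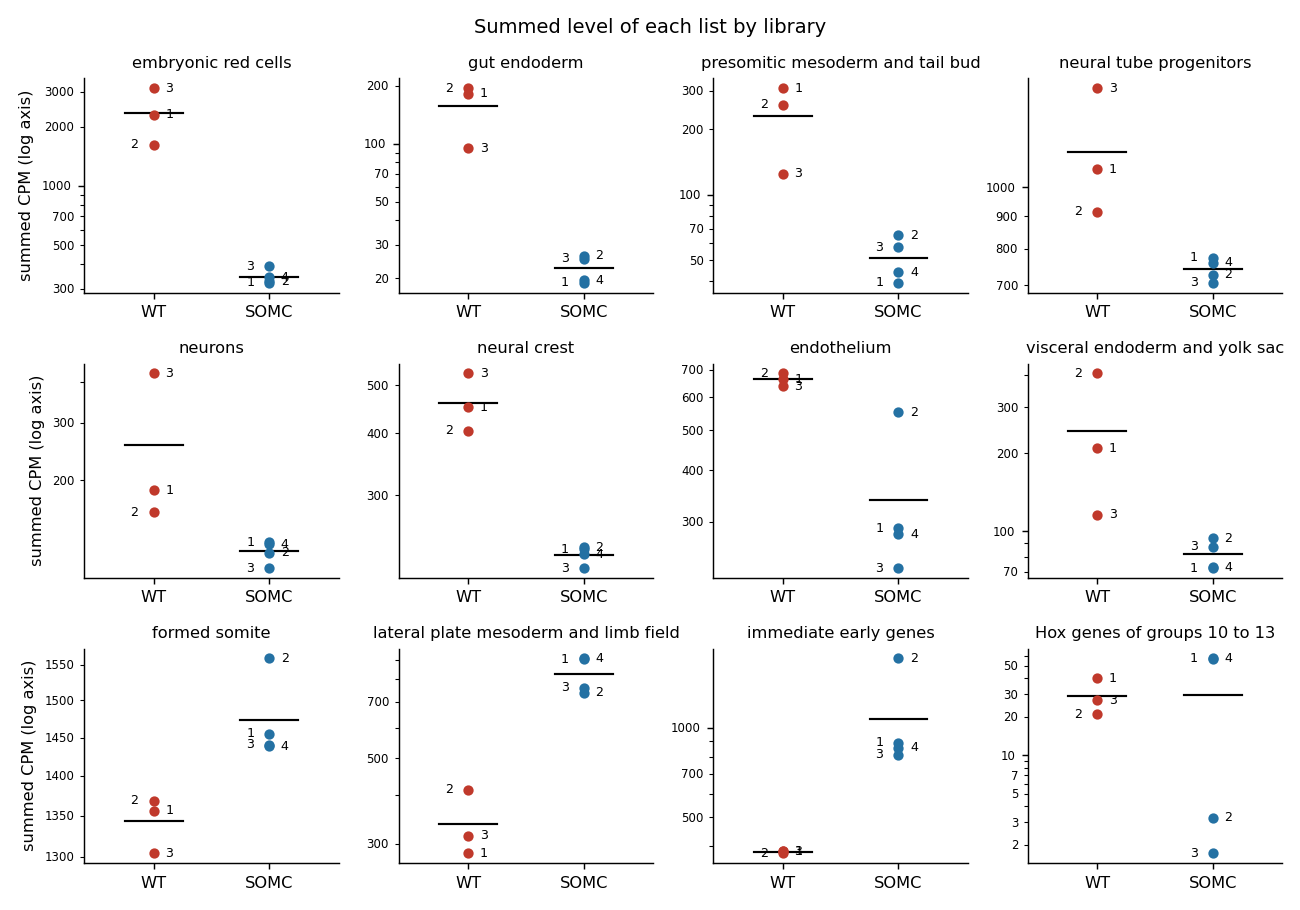
Summed CPM of selected lists in the 3 WT and 4 SOMC libraries on a log axis, 1 point per library. Beside tissue lists, immediate early genes and Hox genes of groups 10 to 13 are drawn. Red-cell sums are 1622 to 3133 in WT against 322 to 391 in SOMC, while formed somite sums lie at 1304 to 1368 and 1439 to 1559. Most of the red-cell sum in SOMC is Tfrc.

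Somite genes, as a list, were called in both directions, where 33.9% of all genes tested were higher and 33.5% lower. Of 15 formed somite genes 3 were higher and 5 lower in WT, with a median of −0.12 and sums of 1304 to 1368 and 1439 to 1559 CPM. Meox1, a homeobox gene of all somite compartments, was at 311, 318 and 288 CPM in WT and 275, 402, 386 and 269 in SOMC. The ranges overlapped, with SOMC2 and SOMC3 above and SOMC1 and SOMC4 below the WT libraries (log2 fold change −0.12 ± 0.14, edgeR adjusted p = 0.454). Against SOMC2 and SOMC3 alone, a subset chosen after the data were seen, Meox1 was lower in WT (−0.39 ± 0.08, edgeR adjusted p = 0.00247). That subset holds the libraries high for Meox1, so this value follows from the choice and is no separate support. Meox2 was at 29.5 to 45.3 and 31.5 to 44.01 CPM. Uncx, of the caudal part of each sclerotome, was lower in WT at 9.89, 11.1 and 13.7 CPM against 41.4, 54.5, 37.6 and 36.2 (log2 fold change −1.87 ± 0.17, −1.17 ± 0.15 trend-removed, edgeR adjusted p = 4.26e-06). Tcf15, which keeps somites epithelial, was lower at 14.4, 16.1 and 12.1 CPM against 28.2, 53.2, 44.1 and 26.7 (log2 fold change −1.41 ± 0.24, edgeR adjusted p = 0.000388), but the trend-removed value was −0.05 ± 0.23 (adjusted p = 0.873). Twist1, of early mesenchyme, was called lower at first (−0.54 ± 0.12) and higher trend-removed (0.32 ± 0.12). Foxc2 was higher in both fits, at 124, 134 and 87.8 and 71.5, 90.6, 73.4 and 66.4 CPM (log2 fold change 0.61 ± 0.14, 1.27 ± 0.14 trend-removed).

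Sclerotome genes had 3 higher and 4 lower of 12 (median −0.39), against 33.9% and 33.5% of all genes tested. Pax1, which drives vertebral body formation, was at 35.6, 30.8 and 61.6 CPM in WT and 56.9, 69.8, 69.03 and 57.2 in SOMC. WT3 lay within the SOMC range, and the call (log2 fold change −0.56 ± 0.21, edgeR adjusted p = 0.0336) ended trend-removed (−0.24 ± 0.21, adjusted p = 0.353) and on leaving out WT1, WT2, SOMC2 or SOMC3 (adjusted p = 0.126, 0.12, 0.0746 and 0.0779). Pax9, its close relative, was at 5.06, 2.35 and 13.2 and 14.2, 6.84, 7.38 and 14.3 CPM and was not called (edgeR adjusted p = 0.271), though without WT3 it was lower (log2 fold change −1.54, adjusted p = 0.00559). Nkx3-2, which Pax1 and Pax9 activate, was lower in WT at 2.12, 2.16 and 3.102 CPM against 7.57, 5.73, 5.74 and 6.95 (log2 fold change −1.40 ± 0.21), and not called trend-removed (edgeR adjusted p = 0.193). Foxd2 was the member called lower in both fits at 7.32, 7.35 and 8.37 and 31.3, 29.2, 31.4 and 27.1 CPM (log2 fold change −1.95 ± 0.10, −1.25 ± 0.10 trend-removed). Sox9 was higher in WT, at 88.01, 74.5 and 112 CPM against 50.97, 35.03, 37.2 and 52.1 (log2 fold change 1.05 ± 0.17, edgeR adjusted p = 0.00027). It is made by neural crest, notochord and gut as well as by sclerotome. The crest, notochord and gut lists were higher in WT too, and their part in its difference was not tested.

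Dermomyotome genes had 5 higher and 1 lower of 12 (median 0.42), against 33.9% and 33.5% of all genes tested. Pax3, which dorsal neural tube and crest also express, was at 49.8, 42.6 and 66.96 CPM in WT and 32.1, 61.7, 33.1 and 32.5 in SOMC, with SOMC2 in the WT range. It was not called (edgeR adjusted p = 0.14), and without SOMC2 it was higher (log2 fold change 0.70, adjusted p = 0.00319). Met, the receptor that muscle precursors need to leave for the limb, was higher at 49.8, 58.5 and 57.1 CPM against 7.96, 11.3, 9.56 and 8.86 (log2 fold change 2.56 ± 0.12, edgeR adjusted p = 6.16e-08). Alx4, a homeobox gene of limb bud and body wall, was the member lower in WT, at 8.61, 16.02 and 12 CPM against 68.4, 23.8, 22.3 and 70.8, with SOMC1 and SOMC4 well above SOMC2 and SOMC3. Muscle genes of the myotome, with 2 higher and 2 lower of 13, were low throughout. Myf5, the first myogenic factor, was at 6.86, 7.31 and 15.7 and 8.06, 6.84, 4.42 and 6.79 CPM (edgeR adjusted p = 0.0995). Myog, of differentiating muscle, was at 1.001, 0.679 and 4.09 and 3.29, 0.846, 0.264 and 4.13 CPM (edgeR adjusted p = 0.838), and Myod1 was too low to test.

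Matrix genes of mesenchyme and cartilage were lower in WT for 9 of 17 and higher for 3, and 12 and 2 trend-removed. Col1a1, the main collagen of connective tissue, was at 47.2, 95.1 and 57.05 CPM in WT and 322, 342, 232 and 307 CPM in SOMC, with every SOMC library far above the highest WT library (log2 fold change −2.18 ± 0.23, edgeR adjusted p = 1.37e-05). Col9a1, a cartilage collagen that notochord makes too, was at 16.4, 16.9 and 27.1 and 66.2, 50.4, 39.6 and 69.2 CPM (−1.49 ± 0.23 on the log2 scale). Col2a1, the main cartilage collagen, was at 138, 139 and 205 and 275, 227, 203 and 256.3 CPM, a call lost trend-removed (edgeR adjusted p = 0.109). Vcan and Hapln1, which together build hyaluronan matrix, were higher in WT at 845 to 1003 against 409 to 476 CPM and 181 to 244 against 82.03 to 125 CPM. The trend-removed differences were smaller, at 0.43 ± 0.07 from 1.002 ± 0.08 and 0.71 ± 0.18 from 1.13 ± 0.15.

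Lateral plate and limb field genes had the lowest median of the tissue lists. Of 17 tested 13 were lower, 12 at least 2-fold, and 1, Irx1, was higher (median −1.25). Lateral plate lies beside the somites and forms body wall, limb bud and gut muscle. Summed CPM was 283, 413 and 315 in WT and 902, 739, 761 and 907 in SOMC. Hand2, a factor of limb bud and heart field, was at 9.35, 19.2 and 6.204 CPM in WT and 111, 57.7, 93.7 and 104 in SOMC (log2 fold change −2.99 ± 0.36, edgeR adjusted p = 3.79e-05). Prrx2, of limb and face mesenchyme, was at 4.75, 8.06 and 4.804 and 62.1, 70.4, 75.8 and 58.7 CPM (log2 fold change −3.51 ± 0.19, edgeR adjusted p = 1.82e-07). Hand1, of lateral plate and extraembryonic mesoderm, was at 14.6, 31.3 and 10.4 and 86.9, 53.7, 56.96 and 88.7 CPM. None of these 3 overlapped between groups, and WT2 had the most Hand1 and Hand2 of the WT libraries. The forelimb gene Tbx5 was at 17.02, 37.6, 32.04 and 16.03 CPM and the hindlimb gene Tbx4 at 9.86, 0.2604, 0.3296 and 9.798 CPM in SOMC1 to SOMC4. Tbx4 was thus present in SOMC1 and SOMC4 and near 0 in SOMC2 and SOMC3, and Tbx5 was higher in the latter pair. With all 4 the log2 fold change of Tbx4 was −3.91 ± 1.22 (edgeR adjusted p = 0.016), and against SOMC2 and SOMC3 alone it was too low to test. Gata4, of heart and gut mesoderm, was at 4.26, 13.2 and 2.31 and 5.03, 5.73, 2.44 and 4.32 CPM and not called.

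Heart genes were mostly too low to test (10 of 18), Myh6 among them at up to 1.82 CPM in WT2. Of the 8 tested, 4 were lower and 1 higher. Tnni1, a troponin shared with slow skeletal muscle, had the highest level of these in SOMC, at 1.801 to 3.95 against 15.3 to 17.1 CPM. Over all genes tested 33.5% were lower and 33.9% higher. Intermediate mesoderm, the kidney field, had 5 lower and 0 higher of 10, and 4 and 1 trend-removed. Its factors Osr1 (9.06 to 16.1 against 14.98 to 17.8 CPM) and Wt1 (12.3 to 32.97 against 14.1 to 29.1 CPM) overlapped and were not called. Smooth muscle genes had 5 lower and 1 higher of 9. Tagln, an actin-binding protein, was at 16.96, 21.6 and 30.9 CPM in WT and 94.8, 72.3, 73.7 and 93.5 in SOMC (log2 fold change −1.85 ± 0.19, edgeR adjusted p = 1.29e-05).

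Secreted signals of the tissues beside the somite were called in both directions. Of 21 tested 10 were higher and 5 lower in WT, against 33.9% and 33.5% of all genes tested. The Wnt ligands of the dorsal neural tube, Wnt1 (5.95, 4.32 and 4.53 against 0.697, 0.1302, 0.989 and 0.676 CPM) and Wnt3a (5.09, 5.22 and 5.82 against 0.398, 0.2604, 0.593 and 0.676 CPM), were higher with no overlap. So were Wnt6 of the ectoderm (14.7, 22.8 and 11.6 against 3.33, 5.01, 4.42 and 2.89 CPM) and Wnt7b (3.06, 2.75 and 4.28 against 0.149, 0.195, 0.198 and 0.0751 CPM, log2 fold change 4.49 ± 0.37). The BMP ligands Bmp4, Bmp5 and Bmp7 were lower. Bmp4 stood at 16.8, 21.7 and 16.5 CPM in WT and 59.2, 45.6, 51.2 and 59.4 in SOMC (log2 fold change −1.56 ± 0.13, edgeR adjusted p = 3.08e-06), Bmp5 at 16.1 to 20.2 against 31.6 to 40.5 and Bmp7 at 8.46 to 10.3 against 15.5 to 23.2 CPM. Bmp2 was at 6.29, 7.78 and 3.13 and 4.68, 2.73, 2.24 and 3.72 CPM, on the higher side in WT (log2 fold change 0.76 ± 0.33), and missed the threshold here (edgeR adjusted p = 0.063). It passed trend-removed (0.0254), by DESeq2 (adjusted p = 0.0395) and in 8 other alternatives. The lateral plate list, which holds Bmp4, moved with these ligands, and its part in their difference was not tested.

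Of the Hedgehog pathway genes 1 was higher and 5 lower of 12, where 33.5% of all genes tested were lower. Gli1, a transcription factor switched on by the pathway, was at 48.4, 48.8 and 44.2 CPM in WT and 113, 108, 79.8 and 109 CPM in SOMC. All SOMC libraries exceeded all WT libraries (log2 fold change −1.12 ± 0.11, edgeR adjusted p = 1.19e-05). Ptch1, the receptor that the pathway also induces, was at 185, 163 and 133 and 206, 262, 183 and 202 CPM (log2 fold change −0.41 ± 0.13, −0.83 ± 0.13 trend-removed), and its call ended without WT3 (edgeR adjusted p = 0.0621). Gli2, the main activator, was at 55.1 to 60.3 and 95.99 to 125 CPM (−0.92 ± 0.09), and Gli3, the main repressor, at 203 to 229 and 105 to 161 CPM (0.56 ± 0.13), a call that ended trend-removed (edgeR adjusted p = 0.0611). Hhip, an induced inhibitor that binds the ligand, was at 31.8, 28.5 and 36.02 and 35.5, 33.9, 28.8 and 38.9 CPM. Its groups overlapped and it was not called (log2 fold change −0.10 ± 0.12, edgeR adjusted p = 0.471), but trend-removed it was lower (−0.61 ± 0.09, edgeR adjusted p = 0.000258).

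BMP response genes were lower in WT for 8 of 12 and higher for 3, and 6 and 2 trend-removed, when the median moved from −1.25 to −0.68. Id1, which blocks differentiation factors, was at 26.4, 28.6 and 23.4 CPM in WT and 77.6, 101, 96.6 and 74.4 in SOMC (log2 fold change −1.74 ± 0.13, −0.83 ± 0.11 trend-removed, edgeR adjusted p = 1.06e-06). Its relatives Id2 and Id3 were higher in WT, at 198 to 243 against 145 to 162 and 169 to 229 against 121 to 144 CPM, Id3 with a log2 fold change of 0.63 ± 0.11, and 1.27 ± 0.09 trend-removed. Msx2, a homeobox gene of BMP-exposed mesenchyme, was at 0.8292, 5.65 and 0.988 and 20.9, 18.5, 24.6 and 18.96 CPM, with WT2 the highest of its group and still below every SOMC library (log2 fold change −3.07 ± 0.55, edgeR adjusted p = 0.000596). The inhibitory Smad genes Smad6 and Smad7, which BMP signals induce as feedback, were at 8.81 to 14.4 against 26.7 to 35.8 and 13.5 to 17.2 against 26.6 to 38.6 CPM. Their trend-removed log2 fold changes were −0.95 ± 0.16 and −0.88 ± 0.13, against −1.52 ± 0.17 and −1.20 ± 0.14.

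**Figure D4:**
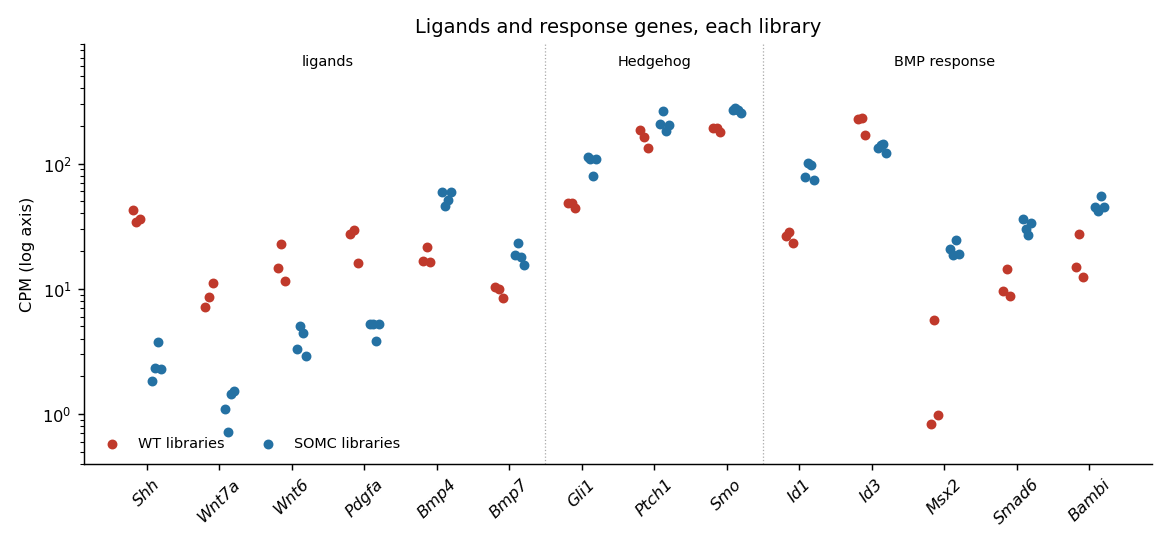
CPM of ligands (Shh, Wnt7a, Wnt6, Pdgfa, Bmp4 and Bmp7), Hedgehog pathway genes and BMP response genes in each WT and SOMC library on a log axis. Shh is at 33.98 to 42.6 CPM in WT and 1.84 to 3.76 in SOMC, while Gli1 is at 44.2 to 48.8 and 79.8 to 113.

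Retinoic acid, which sets somite symmetry and axial identity, is made by Aldh1a2 and broken down by the Cyp26 enzymes. Aldh1a2 was at 162, 172 and 168 CPM in WT and 126, 279, 187 and 127 in SOMC. SOMC2 and SOMC3 lay above and SOMC1 and SOMC4 below WT, and the gene was not called. Aldh1a3, an enzyme of surface ectoderm and other epithelia, was at 3.803, 2.78 and 1.35 and 0.299, 0.195, 0.527 and 0.1502 CPM (log2 fold change 3.22 ± 0.48), and Cyp26b1 at 9.104 to 10.6 and 2.51 to 5.404 CPM, both higher in WT. Crabp1, a retinoic acid carrier of mesenchyme and neural tissue, was lower at 54.98, 46.3 and 53.2 CPM against 209, 196, 249 and 199.9 (log2 fold change −2.05 ± 0.10, −0.88 ± 0.09 trend-removed, edgeR adjusted p = 8.79e-08). The list had 4 higher and 3 lower of 14, where 33.9% of all genes tested were higher and 33.5% lower. Trend-removed, 7 were higher and 3 lower.

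Hox genes, numbered from head to tail, record axial level. Their counts stand beside shares of 33.9% higher and 33.5% lower over all genes tested. In groups 1 to 5, 5 were higher and 7 lower of 15, and 7 and 2 trend-removed, so the balance of calls in this set depended on the fit. Hoxd3 was higher in both, at 92.7 to 105 against 42.8 to 50.7 CPM, and Hoxb2 lower in both, at 22.6 to 24.6 against 55.3 to 63.03 CPM. In groups 6 to 9, 6 of 12 were lower and 0 higher, and 3 and 1 trend-removed. Those lower in both fits were Hoxa7 (8.29, 10.1 and 8.04 against 36.7, 22.6, 33.1 and 34.4 CPM), Hoxb6 (8.75, 11.3 and 14.7 against 41.8, 40.2, 38.8 and 40.8 CPM) and Hoxa9 (18.8, 16.02 and 9.53 against 49.7, 19.9, 25.1 and 45.2 CPM). The call of Hoxa9 ended against SOMC2 and SOMC3 alone (−0.63 ± 0.26, edgeR adjusted p = 0.0649). In groups 10 to 13 none of 7 was called by edgeR (median −0.31), with 0 higher and 0 lower at an unadjusted p under 0.05, and DESeq2 called 0 higher and 0 lower. Counts of 0 were given above for gut endoderm and tail bud genes lower, and for intermediate mesoderm and Hox groups 6 to 9 higher. These were also 0 by edgeR at an unadjusted p under 0.05 and by DESeq2. Trend-removed, 1 intermediate mesoderm gene and 1 Hox gene of groups 6 to 9 were higher. The SOMC libraries divided in groups 10 to 13: the summed list was 56.8, 3.26, 1.71 and 57.2 CPM in SOMC1 to SOMC4 against 39.97, 20.9 and 26.9 in WT. Hoxc10, of the lumbar level, was at 20.2, 1.76, 0.264 and 22.7 CPM in SOMC and 19.4, 9.999 and 11.4 CPM in WT. Against SOMC2 and SOMC3 alone the list's median was 3.50, and Hoxc10 gave 3.72 ± 0.57 (edgeR adjusted p = 0.00063). That subset was chosen after the data were seen and holds the libraries low for this list. These values therefore follow from the choice and are no separate support. Tbx4, Alx4 and Lhx2 divided the sorted libraries in the same way.

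Immediate early genes, which cells switch on within minutes of a disturbance without making new protein first, lay in the other direction. Of 23 tested 16 were lower in WT, 13 at least 2-fold, and 1, Btg2, was higher (median −1.21). Trend-removed, 12 were lower and 2 higher (median −0.51). Promoters of 3 members with a single start site in the reference are printed first, since many members share a response element for the factor CREB, whose core is TGACG. Each run holds 250 bases before and 50 after the start from RefSeq on GRCm38, 5′ to 3′ on the gene's strand, with TGACG or its reverse complement in capitals.

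Fosb (chr7:19309996-19310295, minus strand): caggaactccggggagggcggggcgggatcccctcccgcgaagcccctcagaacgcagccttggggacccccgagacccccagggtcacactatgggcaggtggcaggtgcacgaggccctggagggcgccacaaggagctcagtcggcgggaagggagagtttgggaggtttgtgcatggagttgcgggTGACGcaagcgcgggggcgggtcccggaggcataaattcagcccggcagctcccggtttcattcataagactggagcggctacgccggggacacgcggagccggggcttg
Fos (chr12:85473640-85473939, plus strand): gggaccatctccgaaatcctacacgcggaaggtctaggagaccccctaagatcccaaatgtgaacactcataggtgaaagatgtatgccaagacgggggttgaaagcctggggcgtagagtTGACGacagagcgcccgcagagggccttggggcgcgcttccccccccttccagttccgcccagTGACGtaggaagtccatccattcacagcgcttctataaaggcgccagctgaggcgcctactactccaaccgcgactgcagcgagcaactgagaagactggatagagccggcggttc
Cyr61 (chr3:145649936-145650235, minus strand): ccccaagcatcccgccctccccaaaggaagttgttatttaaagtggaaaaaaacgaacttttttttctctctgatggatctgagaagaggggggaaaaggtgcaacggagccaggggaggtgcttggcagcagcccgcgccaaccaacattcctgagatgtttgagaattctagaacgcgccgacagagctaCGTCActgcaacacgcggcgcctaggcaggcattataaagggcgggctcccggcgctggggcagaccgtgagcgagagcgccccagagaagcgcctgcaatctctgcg

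These letters occurred 1 time in the Fosb window, 2 times in Fos and 1 time in Cyr61. Of the 25 members 19 had a window, and 11 of the 19 (57.89%) held TGACG on either strand in at least 1 window, against 23.05% of 27025 genes and 20.81% of 32851 windows. The CArG box, the element of serum response factor, was found by the same search in 2 of the 19 (10.53%) and in 1.806% of genes. Bases farther from the start than these windows were not searched. A match describes these letters and shows no binding.

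Fosb, a partner of Jun in the AP-1 factor, was at 0.429, 0.247 and 0.165 CPM in WT and 26.6, 197, 42.6 and 24.3 CPM in SOMC. Fos, another AP-1 subunit, was at 0.2001, 0.586 and 0.329 and 27.6, 136, 46.1 and 27.5 CPM, and the zinc finger factor Egr1 at 1.49, 1.64 and 1.84 and 36.1, 178, 34.7 and 33.3 CPM. SOMC2 held the highest level of each, well above the other sorted libraries, and even the lowest sorted library was far above WT. The log2 fold changes were −7.99 ± 1.11, −7.31 ± 0.82 and −5.40 ± 0.75 (edgeR adjusted p = 0.000105, 2.29e-05 and 0.000106). Cyr61, a matrix protein induced by serum and stretch, was at 14.4, 11.6 and 11.2 and 160.0, 279, 108 and 153 CPM (−3.82 ± 0.30). Jun was at 33.3, 30.6 and 38.5 and 162, 215, 112 and 154 CPM (−2.23 ± 0.19), and Atf3, a stress-induced factor, at 4.01 to 5.22 and 13.6 to 23.9 CPM. Other members did not separate: Myc was at 82.6 to 88.1 and 75.3 to 91.6 CPM and Ctgf at 19.4 to 22.8 and 17.3 to 22.1 CPM, neither of them called, though trend-removed Myc was higher (edgeR adjusted p = 0.000813). Jund, at 53.6 to 55.5 and 105 to 177 CPM, went from −1.21 ± 0.17 to −0.12 ± 0.16 trend-removed. Without SOMC2 the list's median was −0.87. Dissociation and sorting were applied to SOMC and not to WT, so handling and tissue cannot be told apart.

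**Figure D5:**
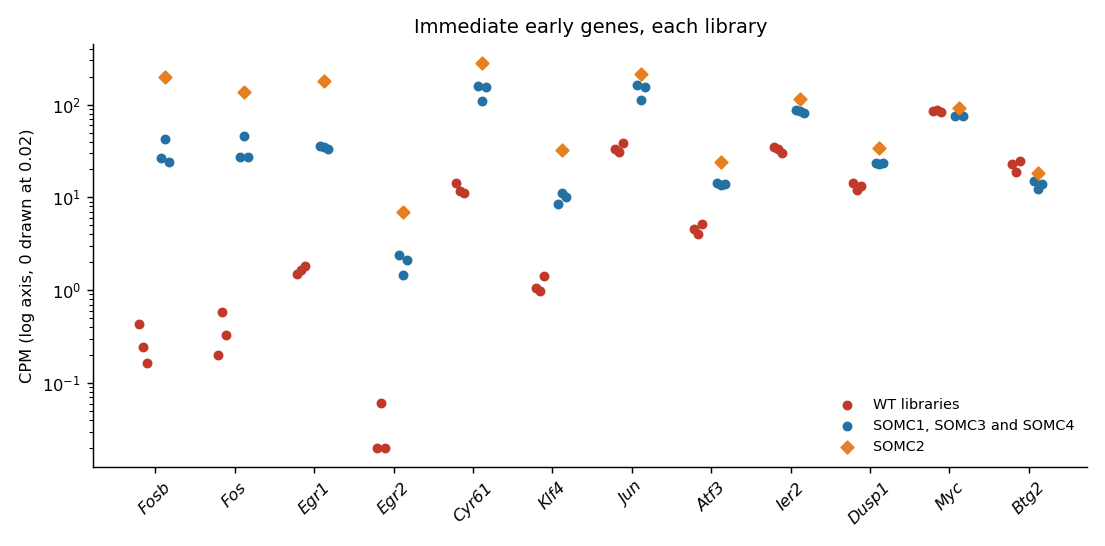
CPM of immediate early genes in each of the 7 libraries on a log axis, 1 point per library. Fos lies at 0.2001 to 0.586 CPM in WT and 27.5 to 136 in SOMC, with SOMC2 highest, while the Myc ranges of the 2 groups overlap.

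Chaperone genes were lower in WT for 11 of 15 and higher for 1, and 9 and 4 trend-removed. The stress-inducible Hspa1a was at 0.4003, 0 and 0.137 CPM in WT and 6.87, 1.11, 1.05 and 7.43 in SOMC, with SOMC1 and SOMC4 well above SOMC2 and SOMC3 (log2 fold change −4.50 ± 0.97, edgeR adjusted p = 0.0021). Its pattern over the sorted libraries was thus not that of Fos, which was highest in SOMC2, and 65.7% of its windows are shared with its twin Hspa1b and others. Ddit3, a factor of the unfolded protein response with no shared window, was at 1.72 to 1.94 and 6.02 to 7.05 CPM (log2 fold change −1.85 ± 0.17). Hsph1 was the member higher in WT at 634 to 688 against 393 to 475 CPM (log2 fold change 0.56 ± 0.08, 0.25 ± 0.08 trend-removed). Targets of p53 had 7 higher and 6 lower of 14, against 33.9% and 33.5% of all genes tested. The pro-death gene Bax was lower at 18.97 to 22.1 against 84.9 to 104 CPM (log2 fold change −2.20 ± 0.09, −1.18 ± 0.08 trend-removed), and Cdkn1a, the cell-cycle inhibitor p21, was lower at 7.22 to 8.06 against 10 to 14.98 CPM (log2 fold change −0.69 ± 0.15, −0.39 ± 0.15 trend-removed).

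Glycolysis and hypoxia genes had 4 higher and 8 lower of 16 (median −0.84), against 33.9% and 33.5% of all genes tested. Over members with under 1% shared windows, however, the median was 0.19. Slc2a1, the glucose transporter GLUT1, which epithelia, neural tissue and red cells carry in bulk, was at 1192, 1296 and 848 CPM in WT and 213, 258, 249 and 205 in SOMC (log2 fold change 2.27 ± 0.14, edgeR adjusted p = 3.8e-07). Pgam1 was lower at 73.8 to 101 against 336 to 453 CPM, with 42.2% of its windows shared, and Pfkl at 187 to 259.7 against 383 to 546 CPM, with 0.811% shared. Cell division genes were balanced, with 5 higher and 6 lower of 18. Top2a was higher at 1408 to 1585 against 789.7 to 838 CPM, and its log2 fold change went from 0.88 ± 0.06 to 0.39 ± 0.06 trend-removed. Plk1 turned from −0.38 ± 0.06 to 0.17 ± 0.06.

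Ribosomal protein genes came out lower in WT for 77 of 80 and higher for 1, with 76 at least 2-fold lower and a median of −2.74. Their sum was 12816 to 15849 CPM in WT and 64267 to 83358 CPM in SOMC. Nearly all have processed copies, and the 4 with under 10% shared windows ranged from −2.17 to −1.44, all lower. The part of discarded alignments in the difference was not tested. Replication histones, whose copies lie in clusters and whose RNA lacks a poly(A) tail, had 21 lower and 1 higher of 30, and 14 and 3 trend-removed.

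The other groups of the series put these levels in order, on a scale set over all 29 libraries and with no test. Red-cell sums were 1581 to 3074 CPM in WT and 2042 to 3557 in MUT, and 347 to 402, 330.0 to 385, 318 to 385 and 295 to 388 in SOMA to SOMD. The cultured groups CTRL and DIR had 221 to 348 and 275 to 439 CPM. Both trunk groups lay above every sorted group, cultured or not. Most of the SOMC sum was Tfrc, which many dividing cells use, so that sum does not measure red cells alone. Lateral plate sums were 276 to 403 CPM in WT and 246 to 392.2 in MUT, and 527 to 849.5, 544 to 798, 732 to 898 and 738 to 881 in SOMA to SOMD. In culture they were 563 to 670.0 in CTRL and 290.3 to 444 in DIR, the latter overlapping WT. Immediate early sums were 369 to 377 and 382 to 413 CPM in the trunk groups, and 579 to 1100.4, 702 to 1589, 799 to 1694 and 688 to 1553 CPM in SOMA to SOMD. CTRL had 442 to 848 and DIR 295 to 597 CPM, and the range of DIR spanned both trunk groups. Ribosomal protein sums were 12574 to 15440.0 CPM in WT and 17474 to 19116 in MUT, against 63629 to 79668, 64846 to 94594, 63616 to 82168 and 63879 to 73917 in SOMA to SOMD, 67688 to 114380.0 in CTRL and 66880.0 to 156610.0 in DIR. The trunk groups, prepared without a sort, were also those with the high share of non-unique alignments, at 40.1 to 40.6% in MUT and 17.1 to 21.1% over the sorted groups that were not cultured.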

How the data were processed

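RNA sequencing counts were used for the 3 trunk libraries (WT) and 4 sorted libraries (SOMC), grouped by their titles, with the other 22 libraries for levels and alternatives. The deposited values are whole-number read counts for 23337 genes per library plus 5 summary lines, which were left out of library sizes and tests. Per the submitters' processing notes the tools were TopHat2 2.0.9, Cufflinks, HTSeq 0.6 and DESeq2 1.10 on mm10. Per the labels' protocols RNA was taken with Trizol, and libraries came from the TruSeq RNA kit V2 with 11 rounds of PCR. That kit keeps no strand, so overlapping and antisense genes cannot be told apart. Discarded non-unique alignments lower the counts of genes with copies.

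Counts were tested with edgeR 4.0.16 in R 4.3.3 (quasi-likelihood test, trimmed mean of M-values scaling, minimum count 10, minimum total count 15, prior count 0.125, Benjamini-Hochberg adjustment, threshold 0.05) over the 7 libraries. CPM carries the same scaling. The standard error after ± was derived from the test, as the unsigned log2 fold change over the square root of its F statistic. The trend-removed fit subtracted, in each library, a local regression of log2 CPM deviation on GC content and then on log2 exon length. Gene models (GENCODE M21 on GRCm38) matched 20953 genes by symbol and 1917 by synonym, with 467 unmatched. On simulated counts for this comparison with 200 of 14294 genes changed, 75% of 2-fold and 96% of 4-fold changes were called, and 0.0791% of unchanged genes. The simulated libraries were independent of each other and had no length, GC or copy trend. In the data 33.9% of genes were called higher and 33.5% lower, so these rates need not hold there. The depth of 15834045 counts or more per library leaves genes under the count minimum untested. Figures were drawn with matplotlib 3.10.9 in Python 3.11.15.

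The 37 lists (713 distinct genes, 706 in the files, 11 in 2 lists) and the libraries compared were chosen with earlier results of these data known. Lists are described by counts and medians with no set test. Genes were named as the 10 largest changes per direction at a mean of at least 10 CPM, up to 6 list members per direction with the lowest p, the most abundant members of each list and anchor genes. Named after their values were seen were Alb, Aldh1a2, Bmp2, Cdh2, Col2a1, Cycs, Ddx3y, Dsp, Eno1, Hba-a2, Hhip, Jund, Meox2, Myod1, Sulf1, Tbx4, Tbx5, Tbx6, Wnt1, Wnt6 and Xist. Genes encoded by mitochondrial DNA had no member in the files. WT and SOMC share replicate numbers 1 to 3, but deviations from group means of same-numbered libraries correlated at −0.0995, 0.14 and −0.202, and nothing in the labels ties them, so the fit has no replicate block. Alternatives were DESeq2 1.42.0, other scaling, no filter, the replicate block, all 29 libraries, SOMC1 and SOMC4 summed, MUT for WT, SOMB or SOMD for SOMC, each library left out, and, chosen after seeing the data, SOMC2 and SOMC3 only and genes with under 1% shared windows.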

Additional observations from a re-analysis of the deposited data

Results flagged for a closer look

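Of the 37 gene lists, 8 had a summed CPM in 1 SOMC library that lay apart from the other 3 by more than Dixon's limit for 4 samples. Chance flags about 1 in 20 groups, and the near-identity of SOMC1 and SOMC4 bears on which gaps look large. SOMC2 was high for formed somite genes (1559 CPM), for notochord and floor plate genes (408 CPM) and for immediate early genes (1711 CPM), and low for Hox genes of groups 6 to 9 (564 CPM). SOMC3 was low for cartilage and mesenchymal matrix genes (2676 CPM) and for Hox genes of groups 1 to 5 (546 CPM), and high for heat shock and unfolded protein response genes (10961 CPM) and for cytosolic ribosomal protein genes (83358 CPM).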

How the results depend on the processing

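The counts of genes higher, lower and at least 2-fold higher in WT stayed within 1.5 times their values under every alternative run. The count at least 2-fold lower was 1321 over genes with under 1% shared windows, where fewer genes were tested (10338). With the replicate block, 4195 genes were higher and 4198 lower, and no block was used because the numbers did not pair the samples. It ended the calls of Tbx4 (edgeR adjusted p = 0.1251), Tbx6 (0.109), Lhx9 (0.107) and Chrd (0.197) and brought that of Bmp2 (0.0481), and changed no other call among the named genes. The fit of all 29 libraries ended the calls of Id3 (edgeR adjusted p = 0.203), Irx1 (0.0666), Jund (0.0604) and Pax1 (0.274). It also ended those of Chrd (0.0838) and Ddx3y (0.096) and brought that of Bmp2 (0.0424). Library totals without scaling moved the median of all genes by 0.1 on the log2 scale. Of 127 named genes past the threshold, 92 kept their direction and call in all alternatives run.

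Directions turned for Twist1 (0.32) and Plk1 (0.17) trend-removed, Col2a1 (0.37), Hoxc10 (−1.91), Myog (4.28) and Hhip (0.56) with SOMB, Cyp26b1 (−0.15) and Gata4 (−1.86) with SOMD, and Xist (0.28) and Ddx3y (−0.10) with MUT, where the groups themselves change, and the cause was not tested. Leaving out 1 library ended the calls of Chrd (edgeR adjusted p = 0.0833 to 0.157 without WT1, WT3, SOMC1 or SOMC4), Lhx9 (0.0506 to 0.0587 without WT1, WT2 or SOMC1), Tbx4 (0.0506 and 0.0548 without WT2 and WT1) and Tbx6 (0.0592 and 0.0672 without WT2 and WT1). It brought calls for Bmp2 (0.00484 without WT3 and 0.0369 without SOMC1), Myf5 (0.0439 without WT1) and Cdh2 (0.0341 without SOMC2), beside those the text above gives for Pax1, Pax3, Pax9, Ptch1, Dsp and Tubb3. Against SOMC2 and SOMC3 alone the calls of Chrd (0.509), Col2a1 (0.054), Lhx9 (0.351) and Tbx6 (0.12) ended. Those of Aldh1a2 (0.0146) and Bmp2 (0.033) came, and changes for Hoxa9, Kdr, Meox1 and Hoxc10 are given above. SOMC2 and SOMC3 were the sorted libraries highest for Aldh1a2 and lowest for Bmp2, so both calls follow from the choice. Cdh2 was also called with size factors of DESeq2's kind in edgeR (0.0442), with unscaled totals (0.0069) and with SOMD (0.00243). Genes near the count minimum are those that depth limits.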
